A study of Drosophila melanogaster with 4 samples.

Results

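The genes described here were listed for roles in somatic cells of the *Drosophila* testis, those of the hub and the cyst lineage. The hub is the cluster of cells at the tip that forms the stem cell niche, and cyst cells enclose the developing germ cells. Not every listed gene is confined to these cells. The genes were chosen as the probe sets that the array annotation gives to exactly 1 of 10 listed genes, *tj*, *zfh1*, *eya*, *chinmo*, *Socs36E*, *Stat92E*, *upd1*, *Fas3*, *hh* and *ptc*. Of the 18769 probe sets tested, 10 met this rule, and they stand for 8 of the 10 genes. *chinmo* has 3 of them and the other 7 genes have 1 each. The annotation used here names no probe set for *Socs36E* or *Fas3*, and these genes were not analysed here.

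Testes of *nsr* mutant and wild-type (WT) flies were compared, both from males aged 0 to 2 days, with the seminal vesicles removed. *nsr* (*CG3875*) is a young duplicate of *kep1* that encodes an RNA-binding protein. Its null allele was made by gene targeting and deletes the gene from just after the transcription start into the 3′ UTR, and the WT stock is a recombinant line that kept the intact allele in the same targeting experiment, so that both share a genetic background. RNA of each sample was hybridised to a GeneChip *Drosophila* Genome 2.0 array, on which a set of short probes (a probe set) reports a transcript, with 2 arrays per genotype, *nsr* mutant 1 and 2 and WT 1 and 2.

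In the testis tip, hub cells secrete Upd1, a ligand that activates the JAK-STAT pathway in the adjoining germline stem cells and cyst stem cells. In cyst stem cells the transcription factor Stat92E acts upstream of the transcriptional repressors Zfh1 and Chinmo, which maintain the stem cell state, while Hedgehog from the hub is received through its receptor Patched. As cyst cells leave the niche, early cyst cells carry Traffic jam, and later ones carry Eyes absent, which is needed for the germ cells they enclose to go on to spermatocytes.

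No probe set of these genes differed between the genotypes by the test used. The values are linear intensities as deposited, without unit, and they were compared with limma on log2(intensity + 16), adjusting p-values over all 18769 probe sets. Adjusted p lay between 0.720 and 0.994 for the 10 probe sets, and none reached an unadjusted p of 0.05, the lowest being 0.0763. Over the whole array 0.00533% of probe sets passed the adjusted test, and 7.13% had an unadjusted p under 0.05. The single probe set that passed is that of *nsr* itself, at 23.2 and 27.6 in the mutant and 549 and 554 in WT. It had a log2 fold change of -3.78 (adjusted p = 0.00837 from limma), so that the arrays bear out their labels, although this call was lost when any 1 array was left out. RNA was extracted independently for each array, but nothing says that different flies were used, so the p-values rest on a spread between 2 samples per genotype that may be technical. With 2 arrays against 2, an exact two-sided permutation test of a single gene could not go below p = 0.333.

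Detection set what could be compared. A probe set counts here as above background on an array if it exceeded the highest of 67 negative control probe sets, which was between 5.88 and 8.92. By this measure 5 of the 10 probe sets, those of *hh*, *Stat92E* and *eya* and 2 of the 3 of *chinmo*, were above background on all 4 arrays. *zfh1* was above it on 3 arrays and *ptc* on 1. The probe sets of *upd1*, *tj* and the third of *chinmo* were above it on none, as were 34.9% of all probe sets tested. The hub ligand *upd1* and the cyst lineage factor *tj* are both defining markers of the cells in question. The 1 probe set of each therefore gave no measurable level in either genotype. A probe set under background does not show that its gene is silent, since *chinmo* had 1 such probe set beside 2 above background. The hub is a small group of cells in a whole testis, and these bulk samples cannot tell fewer cells of a type from less RNA per cell.

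**Figure D1:**
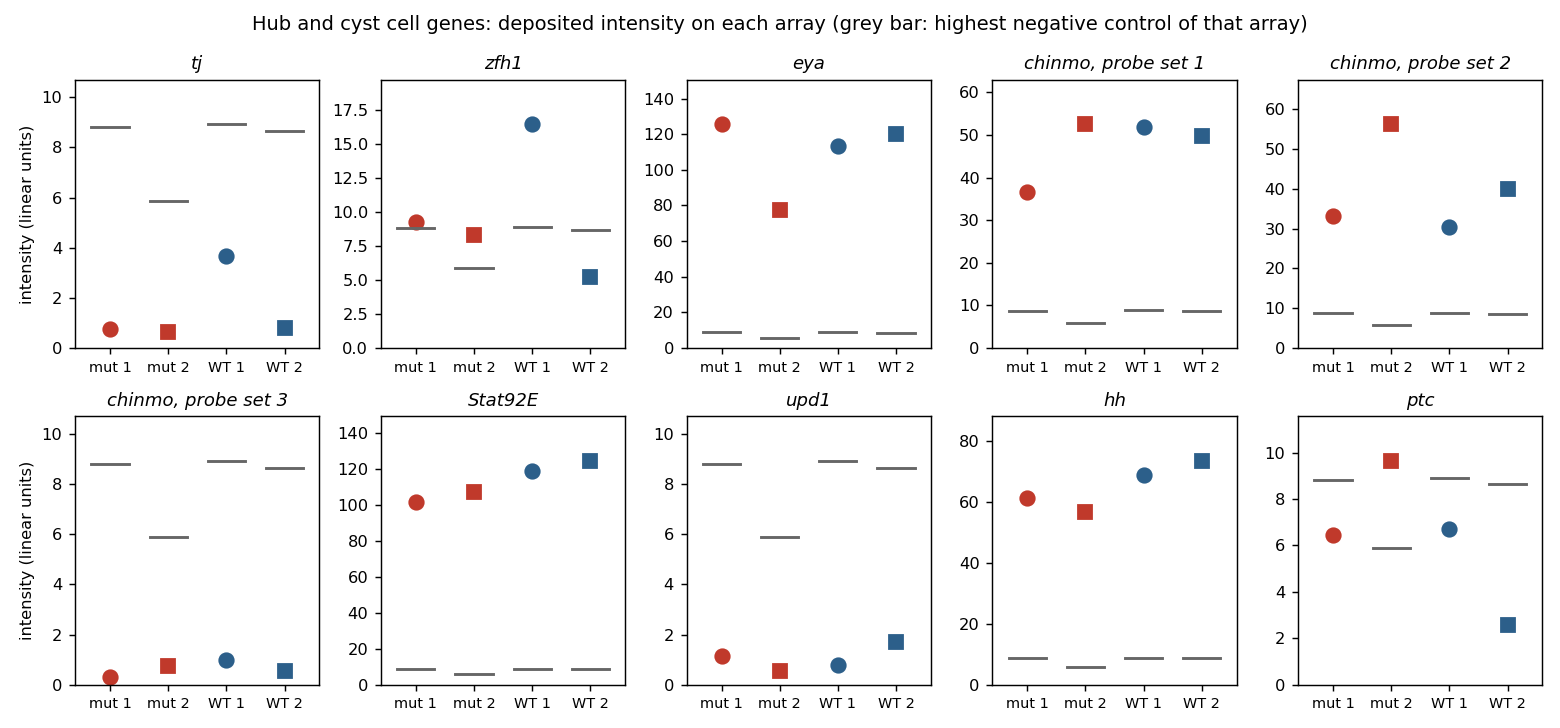
Deposited intensity (linear units, axis from 0) of each of the 10 probe sets on the *nsr* mutant (red) and WT (blue) arrays, with a circle for replicate 1, a square for replicate 2 and a grey bar for the highest negative control of that array. *hh* and *Stat92E* lie lower in the mutant without overlap, *eya* is lowest on *nsr* mutant 2 at 77.7, and *upd1*, *tj* and the third *chinmo* probe set lie below every grey bar.

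Of the hub ligands, *hh* was measured on every array. Its intensity was 61.4 and 56.7 on *nsr* mutant 1 and 2, and 69.0 and 73.5 on WT 1 and 2. Both mutant values were below both WT values, and the mutant mean of 59.1 ± 3.27 (SD, n = 2) was 82.9% of the WT mean of 71.3 ± 3.16 (SD, n = 2). The log2 fold change of -0.22 had a 95% confidence interval from -0.47 to 0.03, and limma gave an adjusted p of 0.720. After quantile normalization the *hh* intensities were 67.9 and 55.9 in the mutant and 71.5 and 65.2 in WT, so that the genotypes overlapped. *upd1*, the other hub ligand, had 1.15 and 0.546 in the mutant and 0.791 and 1.70 in WT, all under the negative controls, and no fold change is given for it.

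The Hedgehog receptor *ptc*, which is also a transcriptional target of the pathway, had 6.43 on *nsr* mutant 1 and 9.63 on *nsr* mutant 2, against 6.71 and 2.56 on WT 1 and 2. Only *nsr* mutant 2 was above its negative controls, so that WT has a bound and no level, and no fold change is given. *Stat92E*, the transcription factor of JAK-STAT signalling, was measured on every array, at 101.5 and 107 in the mutant and 119 and 124 in WT. Both mutant values were below both WT values, and the mutant mean was 85.9% of the WT mean. Its log2 fold change of -0.19 had a 95% confidence interval from -0.44 to 0.05 (adjusted p = 0.740 from limma). After quantile normalization *Stat92E* had 112 and 106.0 in the mutant and 124 and 110.5 in WT, and the genotypes overlapped.

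Among the factors of cyst stem cells, *chinmo* was reported by 3 probe sets that did not move alike. The first, with the highest mean of the 3 (1629484_s_at), had 36.5 and 52.5 in the mutant and 51.9 and 49.8 in WT, where *nsr* mutant 1 stands below the other 3 arrays. Its log2 fold change was -0.16 (95% confidence interval from -0.55 to 0.24). The second (1628005_at) had 33.3 and 56.1 in the mutant and 30.4 and 40.0 in WT, where *nsr* mutant 2 stands above the other 3. Its log2 fold change was 0.23 (95% confidence interval from -0.34 to 0.79). The genotypes overlapped in both, and the sign of each rested on 1 array. Without *nsr* mutant 1 the first had 0.03, and without *nsr* mutant 2 the second had -0.05. After quantile normalization both mutant values of the second were above both WT values, at 37.3 and 55.3 against 31.9 and 35.0, while those of the first overlapped. The third (1636985_s_at) lay between 0.310 and 1.002 on the 4 arrays, under the negative controls. No direction for *chinmo* is read from these values. Where in the gene each probe set lies was not examined.

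*zfh1* had 9.27 and 8.30 in the mutant and 16.4 and 5.23 in WT. The WT arrays lie on either side of the mutant ones, and WT 2 was under its negative controls. The log2 fold change of -0.08 had a 95% confidence interval from -0.65 to 0.48, and it was 0.22 without WT 1. *tj*, which encodes a Maf family transcription factor, had 0.755 and 0.636 in the mutant and 3.68 and 0.797 in WT, all under the negative controls.

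Of the later cyst cell genes, *eya*, a transcriptional coactivator and protein phosphatase, had 125.5 and 77.7 in the mutant and 113.5 and 120.3 in WT. *nsr* mutant 1 was the highest of the 4 arrays and *nsr* mutant 2 the lowest, so that the spread of the mutant (SD 33.8, n = 2) was larger than the difference between the means of 101.6 and 116.9. The log2 fold change was -0.21 (95% confidence interval from -0.76 to 0.35, adjusted p = 0.887 from limma), and it turned to 0.09 without *nsr* mutant 2.

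**Figure D2:**
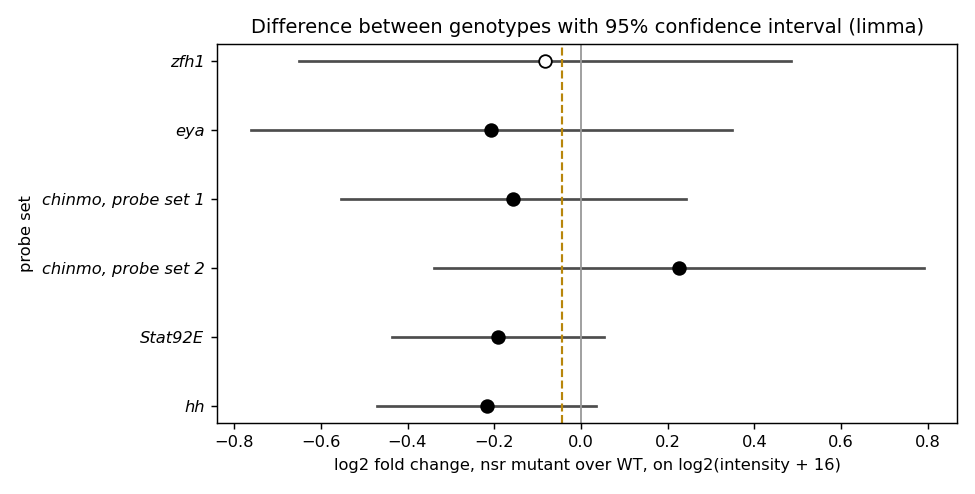
Log2 fold change of *nsr* mutant over WT on log2(intensity + 16) for the 6 probe sets above background on at least 1 array of each genotype, with lines for the 95% confidence interval from limma, filled points for probe sets above background on all 4 arrays and a dashed line at the median of all probe sets (-0.04). Every interval spans 0, and those of *hh* and *Stat92E* are narrower than those of *eya*, *zfh1* and both *chinmo* probe sets.

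Over the 8 genes, with the probe set of highest mean standing for *chinmo*, the median log2 fold change was -0.14, against -0.04 over all probe sets. This median includes *upd1* and *tj*, which had no measurable level, and *ptc* and *zfh1*, which were not above background throughout, and nothing is read from it. Over the 4 genes above background on all arrays the median was -0.20, against -0.08 over all probe sets so measured. The median of the 8 genes was -0.075 after quantile normalization and -0.086 without *nsr* mutant 2. Of the 5 probe sets above background on all 4 arrays, 2 had both mutant values below both WT values and none had both above. Among all 9743 probe sets above background on all 4 arrays, both mutant values lay below both WT values in 27.7% and above them in 7.86%, and this split changed with the scaling of the arrays. It was 22.5% and 25.3% after quantile normalization and 18.0% and 30.9% with array medians centred, and under both of these settings none of the 5 had both mutant values below and 1, the second *chinmo* probe set, had both above. The arrays differed in overall brightness, with median intensities of 12.1 and 14.1 in the mutant and 13.5 and 15.7 in WT. The ratio of 5′ to 3′ signal, a measure of RNA integrity, was lower in the mutant for *Act5C*, at 0.229 and 0.227 against 0.297 and 0.264. It overlapped for the other control transcripts, at 0.598 and 0.592 against 0.637 and 0.545 for GAPDH and at 0.321 and 0.355 against 0.348 and 0.367 for eIF-4a. The part of brightness or RNA integrity in the lower values of *hh* and *Stat92E* was not tested.

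**Figure D3:**
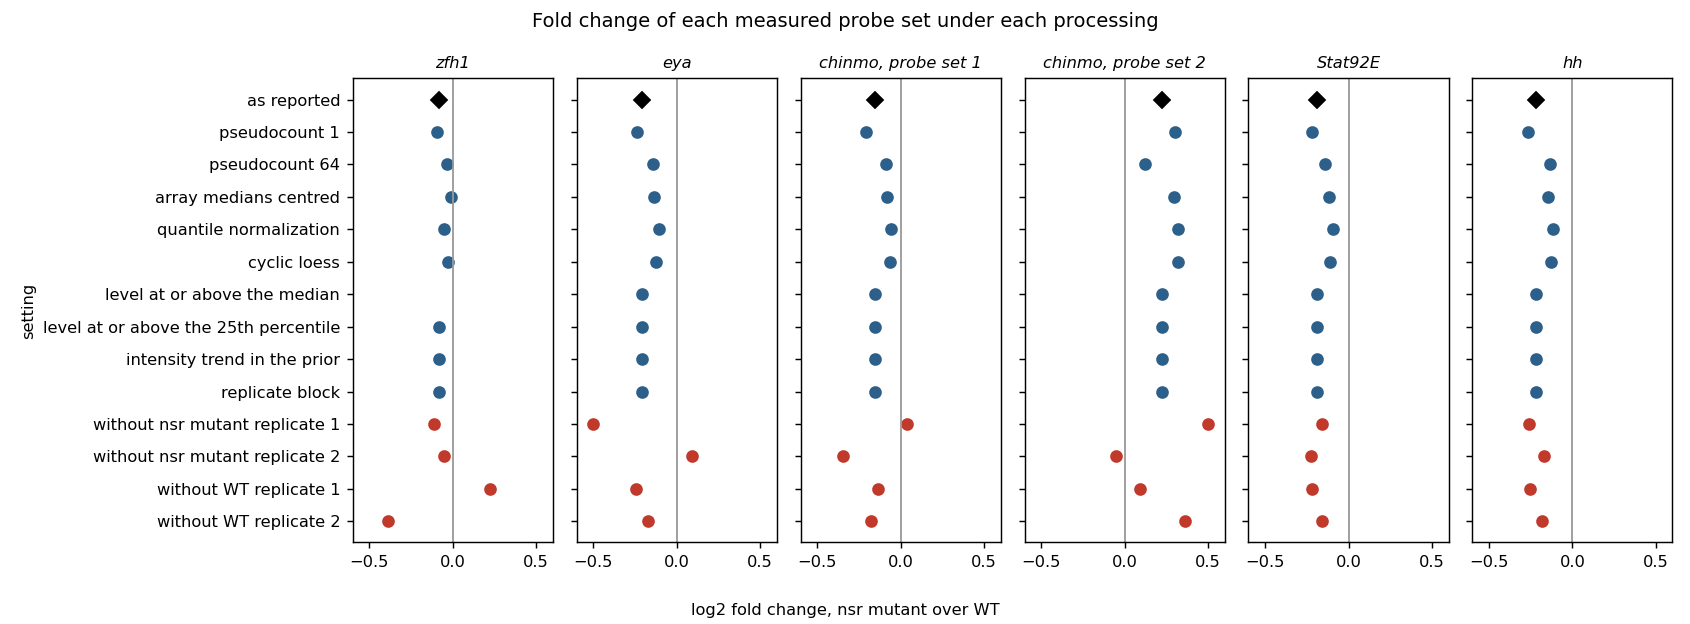
Log2 fold change of *nsr* mutant over WT for the same 6 probe sets under each processing (black diamond, as reported; blue, another setting with all arrays; red, 1 array left out). *hh* and *Stat92E* stay below 0 in every setting shown. Their genotypes do not overlap as deposited, so leaving out 1 array could not turn their sign. *zfh1*, *eya* and both *chinmo* probe sets cross 0 when 1 array is left out, as *eya* does at 0.09. *zfh1* has no point where probe sets below the median level are left out.

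Genes of JAK-STAT signalling were read from a list of 14, which includes *upd1* and *Stat92E* described above. Of the 14, 11 had a probe set and 8 were above background on all arrays, *Stat92E* among them. None passed the test in either direction. The median log2 fold change was -0.19, which is the value of *Stat92E* itself, against -0.04 over all probe sets. The list median was -0.12 without *nsr* mutant 1. The receptor *dome* had 93.3 and 111.7 in the mutant and 107 and 124 in WT, which overlap as deposited but not after quantile normalization. *et*, a receptor-like antagonist of the pathway, had 2.40 and 6.81 in the mutant and 11.2 and 11.7 in WT, a log2 fold change of -0.42 with an adjusted p of 0.690 from limma, and *nsr* mutant 1 was under its negative controls. *Su(var)2-10*, which encodes the PIAS protein that restrains Stat92E, had 92.8 and 128 in the mutant and 132 and 150.4 in WT. The transcriptional regulators *apt* and *ken* were also lower in the mutant without overlap, with log2 fold changes of -0.29 and -0.21. For *Su(var)2-10* and *apt* the genotypes also stayed apart after quantile normalization, and for *ken* they overlapped. These genes were picked by p in the same arrays, so staying apart is no separate support. Of the other negative regulators, *Socs16D*, *Socs44A* and *Ptp61F* had log2 fold changes of -0.23, -0.04 and -0.11, with overlapping genotypes. *nsr* mutant 1 was the lowest array for *et*, *apt* and *Su(var)2-10*, and without it their log2 fold changes were -0.27, -0.14 and -0.12, the last from -0.32. The ligand *upd2* was under the negative controls on all 4 arrays.

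The Hedgehog list of 21 genes includes *hh* and *ptc* described above. Of the 21, 17 had a probe set, none passed the test and the list median was -0.08. It was -0.17 over the 14 genes above background on all arrays, -0.14 without WT 1 and -0.039 without WT 2. *smo*, the transducer that *ptc* holds in check, had 93.7 and 85.0 in the mutant and 56.4 and 71.2 in WT. Both mutant values were above both WT values, with a log2 fold change of 0.41 (adjusted p = 0.690 from limma). *ci*, the transcription factor at the end of the pathway, had 10.7 and 17.1 in the mutant and 25.3 and 23.3 in WT, a log2 fold change of -0.44 (adjusted p = 0.690 from limma) that was -0.28 without *nsr* mutant 1. The receptor kinase regulator *Gprk2* had 10.97 and 12.8 against 17.4 and 20.7. *Cul3*, a ubiquitin ligase subunit that acts on Ci and also in sperm individualization, had 699.5 and 810 against 950.0 and 1128. *rdx*, a substrate adaptor of *Cul3* named here after its values were seen, had 14.0 and 20.3 against 24.9 and 36.9. *smo*, *ci*, *Gprk2*, *Cul3* and *rdx* were the 5 of the 17 genes with an unadjusted p under 0.05 from limma. Among all probe sets tested, 7.13% had such a p. In each of the 5 the genotypes stayed apart after quantile normalization. The 5 were picked by p in the same arrays, so this is no separate support. Among all probe sets above background on all arrays, both mutant values were then below both WT values in 22.5% and above in 25.3%. *disp*, which acts in the release of Hedgehog, had 20.04 and 19.9 in the mutant and 25.3 and 24.1 in WT, which overlapped after quantile normalization, and the co-receptors *ihog* and *boi* were each above the negative controls on 3 arrays, with overlapping genotypes.

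Genes of the hub and its adhesion formed a list of 15, which includes *upd1* and *hh* described above. Of the 15, 11 had a probe set, none passed and the list median was -0.22. It was -0.059 without *nsr* mutant 1 and -0.072 without WT 2. *CadN*, a cadherin of hub cells, had 45.7 and 67.9 in the mutant and 87.9 and 94.1 in WT, and was the gene of this list with the lowest log2 fold change, -0.57 (95% confidence interval from -1.02 to -0.13, adjusted p = 0.690 from limma). *p120ctn*, a catenin that binds cadherins, had 119 and 159 against 207 and 197, a log2 fold change of -0.50. Without *nsr* mutant 1 the log2 fold change was -0.35 for *CadN* and -0.32 for *p120ctn*. *shg*, which encodes E-cadherin, and *alpha-Cat*, its link to actin, had log2 fold changes of -0.17 and -0.31, with overlapping genotypes. *esg*, which maintains hub cells, had 12.03 and 26.8 in the mutant and 20.4 and 19.3 in WT, with the WT arrays between the mutant ones. *dlg1* was lower on both mutant arrays as deposited, with a log2 fold change of -0.22, but overlapped after quantile normalization. *robo1* had 5.52 and 8.23 against 17.0 and 9.56, where *nsr* mutant 1 was under its negative controls, and its log2 fold change of -0.35 was -0.16 without WT 1. *sli*, the ligand of Robo receptors, was above the negative controls on 1 array.

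The cyst lineage list held 13 genes, which include *tj*, *zfh1*, *chinmo* and *eya* described above. Of the 13, 12 had a probe set, none passed and the median was -0.18, against -0.04 over all probe sets. The related lists share genes with the identity genes and with each other, and nothing is read from their medians. *so*, whose product binds DNA together with Eya, had 50.4 and 57.4 in the mutant and 81.7 and 93.4 in WT. Its log2 fold change of -0.57 had a 95% confidence interval from -0.86 to -0.27 that does not span 0, but the change did not pass over all probe sets (unadjusted p = 0.00464, adjusted p = 0.690 from limma). Both mutant arrays stayed below both WT arrays after quantile normalization, which is no separate support, since *so* was picked by p in the same arrays. *Six4*, a relative of *so*, had 43.3 and 34.1 in the mutant and 45.5 and 38.8 in WT, which overlap. The septate junction genes *Nrx-IV*, *cora* and *kune* had log2 fold changes of -0.24, -0.09 and -0.07. *Egfr*, the receptor through which germ cells signal to cyst cells, was under the negative controls on all 4 arrays.

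**Figure D4:**
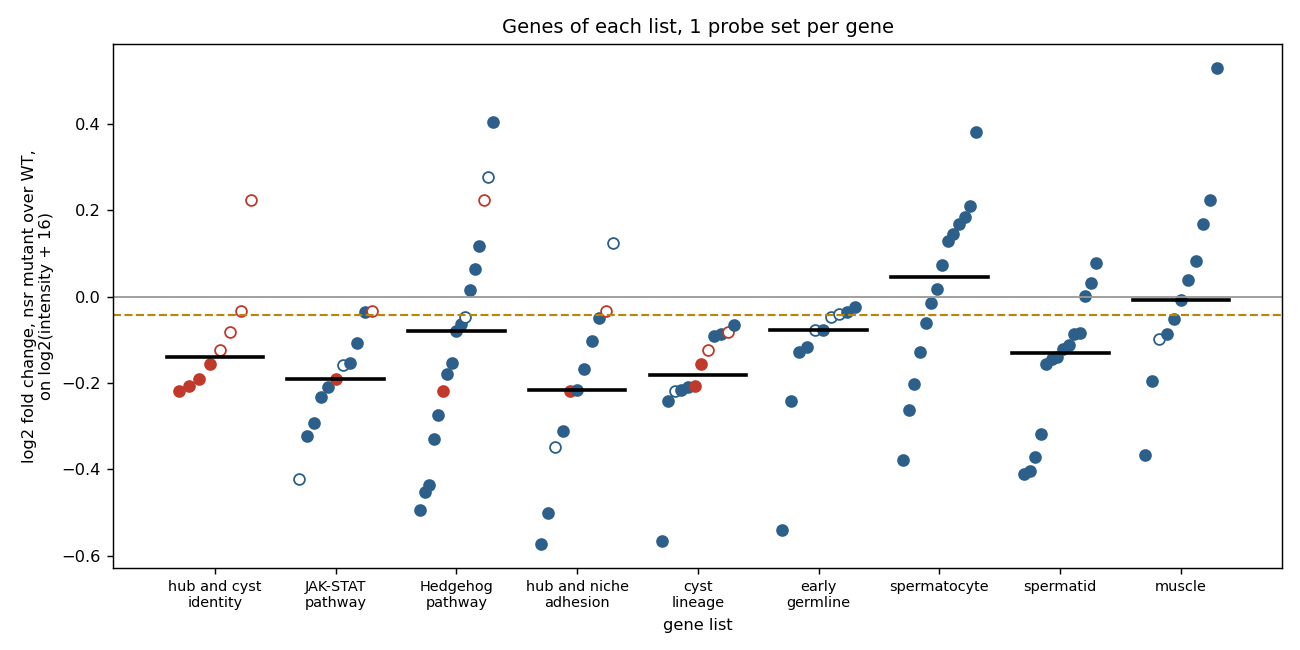
Log2 fold change of *nsr* mutant over WT on log2(intensity + 16) for the genes of each list, with 1 probe set per gene (red, hub and cyst identity genes; blue, other genes; filled, above background on all 4 arrays; black bar, list median; dashed line, median of all probe sets, -0.04). The medians of the 5 lists at the left lie between -0.22 and -0.08. Of the other lists drawn, spermatid and early germline have medians of -0.13 and -0.08, and spermatocyte and muscle have 0.05 and -0.01.

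Across these 4 lists 39 genes with a probe set were not among the 10 identity genes, and 32 of them were above background on all 4 arrays. Of these, 14 (43.8%) had both mutant values below both WT values and 1, *smo*, had both above, against 27.7% and 7.86% of all probe sets so measured. After quantile normalization the counts were 10 and 2 of the 32, against 2197 and 2462 of 9743 probe sets (22.5% and 25.3%). With medians centred they were 9 and 3 of the 32, against 1752 and 3012 of 9743 (18.0% and 30.9%). The lists were chosen with earlier results of these data known, and nothing is read from these shares. As deposited, 8 of the 14 spermatid genes also had both mutant values below both WT values, and none had both above. After quantile normalization *dj*, *djl*, *Mst98Ca*, *Mst84Da*, *schuy* and *hale* had both below. *Mst84Db*, *Mst84Dc*, *ProtA* and *ProtB* then had both above, and the others overlapped.

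The labelled tissue was checked against its markers. All 14 spermatocyte and all 14 spermatid genes were above background on all 4 arrays, while of 10 early germline genes 7 were, and *vas*, *ovo* and *otu* were above it on none. Of 11 genes of muscle, which sheathes the testis, 10 were above background on all arrays. Their summed intensity was 1525 and 2112 in the mutant and 1815 and 2100 in WT, so that the genotypes overlapped. Of 11 accessory gland genes 2 were above background on all arrays, with summed intensities of 453 and 578 in the mutant and 446 and 495 in WT. Most of this was *Acp95EF*, at 350 and 424 against 345 and 378. Of 5 ejaculatory duct and bulb genes 4 were above background on all arrays, with sums of 753 and 867 against 936 and 997. Of 8 fat body genes 5 were, with sums of 821 and 1050 against 824 and 1115. Most of these sums was *EbpIII* and *apolpp*. The summed intensity of the 14 spermatid genes was 31780 and 34420 against 34260 and 36770. The part of other cells in the values of the hub and cyst genes was not tested.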

How the data were processed

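The authors deposited linear intensities, 1 per probe set and array, from 1-colour GeneChip *Drosophila* Genome 2.0 arrays. No source used here says how probes were summarised, corrected or scaled. Precision is limited by the 4 arrays. Gene names come from the array annotation, updated with a gene table of genome release 6 that holds 13544 of the 13647 gene IDs of probe sets with 1 gene. The 183 Affymetrix controls were left out. Negative controls were the 50 probe sets named after plant proteins and the 17 tag probe sets.

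The comparison of genotypes used limma 3.58.1 (lmFit, eBayes; R 4.3.3) on log2(intensity + 16), two-sided, without covariates, with Benjamini-Hochberg adjustment and a threshold of 0.05. Fold changes on this scale understate the change of dim probe sets. The methods of the paper name SAM, which was not run. Gene lists used 1 probe set per gene, the one with the highest mean. Named were all probe sets of the 10 genes, in each related list up to 4 other genes with the smallest p and those with the highest and lowest mean, and *nsr*. Other genes of these lists were named after their values were seen. The genes and lists were chosen with earlier results of these data known. The alternatives were pseudocounts of 1 and 64, centred medians, quantile and loess normalization, filters on level, an intensity trend in the prior, a replicate block, leaving out each array, and averaging over the probe sets of a gene. The fit was tested on simulated data. Tables and figures used Python 3.11.15, pandas 2.3.3 and matplotlib 3.10.9.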

Additional observations from a re-analysis of the deposited data

How the results depend on the processing

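No probe set of the hub and cyst genes and no gene of the 4 related lists passed the test under any alternative. For *so* and *CadN*, picked by p in the same arrays, the adjusted p from limma depended on the setting. It was 0.083 and 0.098 with medians centred, 0.099 and 0.094 with a filter at the median level, and 0.404 for both with quantile normalization. The number called over the array was 1 as reported, 0 with a pseudocount of 1 and without any 1 array, 2 with loess, 3 with quantile normalization, 111 with medians centred, and 120 and 137 with a filter on level at its median and 25th percentile. The median log2 fold change of the 8 genes was -0.14 as reported, -0.23 and -0.061 with pseudocounts of 1 and 64, -0.068 with medians centred, -0.075 with quantile normalization, -0.086 with loess, -0.20 and -0.17 with the same filters, -0.10 when probe sets of a gene were averaged, and -0.17 to -0.086 with 1 array left out. The Hedgehog median was 0.00 with quantile normalization and 0.01 with loess. The JAK-STAT, hub and cyst lineage medians were -0.13, -0.12 and -0.11 with quantile normalization. With loess they were -0.12, -0.13 and -0.11. With a pseudocount of 1 *nsr* had -4.39, at an adjusted p of 0.346 from limma, and -3.85 to -3.70 with 1 array left out, which no longer passed. With 1 array left out, the lone array of a genotype is assumed to vary like the other genotype, and the ranges were -0.39 to 0.22 for *zfh1* (above 0 without WT 1), -0.50 to 0.090 for *eya* and -0.049 to 0.50 for the second *chinmo* probe set (sign turned without *nsr* mutant 2), -0.35 to 0.035 for the first (without *nsr* mutant 1) and -0.51 to 0.032 for *Nrx-IV* (without WT 2). *hh* and *Stat92E* kept their sign in all 14 settings. Since their genotypes did not overlap as deposited, only a rescaling of the arrays could have turned it. With quantile normalization, centred medians and loess *hh* had -0.12, -0.15 and -0.13, and *Stat92E* had -0.09, -0.12 and -0.11. With quantile normalization and with centred medians the genotypes overlapped for both genes.

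With the replicate number as a block 2 probe sets were called over the array and none of the hub and cyst genes. Same-numbered arrays deviated together only weakly (correlation 0.12 over the probe sets above background), and nothing in the labels says that a number marks a shared batch. The cause of the differences between settings was not tested.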

Other observations

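The early germline genes gave no call. The differentiation factor *bam* had 29.3 and 34.3 in the mutant and 29.8 and 35.3 in WT, its partner *bgcn* had 103 and 116 against 101 and 141, and *tut*, which acts with them, had 131 and 149 against 135 and 152. The genotypes overlapped in all 3 as deposited, and after quantile normalization both mutant values of *bam* and *tut* were above both WT values. The median log2 fold change of the 10 genes was -0.08. The piRNA pathway genes *aub* and *AGO3* had log2 fold changes of -0.24 and -0.54. *aub* had both mutant values below both WT values, as deposited and after quantile normalization (adjusted p = 0.747 from limma). So had 27.7% and 22.5% of all probe sets above background on all arrays. *AGO3* overlapped, and its mutant arrays stood apart from each other, at 27.2 and 65.9 against 61.4 and 80.6 in WT.

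Markers of blood cells and pigment cells also gave no call, and those above background on all arrays had values on both sides of 0. Of the blood cell genes, the scavenger receptor *crq* and the GATA factor *srp* had log2 fold changes of -0.36 and -0.30, and *Hml* and *Pxn* had 0.06 and 0.03. Of the pigment genes, the xanthine dehydrogenase *ry* had -0.27 and the transporter *bw* had 0.07.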
